A study of Homo sapiens with 36 samples.

Results

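The genes described here encode the mitochondrial ribosomal proteins of HCT-116 cells, a human colorectal carcinoma line. Members were taken by name, as protein-coding genes whose symbol is MRPL or MRPS followed by digits and at most a single letter. The rule found 78 genes among the 62757 listed, and 76 of them passed the filter on low counts (a mean of 64 counts or more in any group), as did 12356 genes in all. MRPL53 had 0 counts and MRPS24 had 118 counts over 24 libraries, so neither was tested. The rule itself uses no expression value, although it was chosen with earlier results of these data known. By the present structural assignment of these proteins, 51 members belong to the large subunit, 26 to the small subunit and 1, MRPS36, to neither, since its product is a component of the 2-oxoglutarate dehydrogenase complex. Members with a bacterial homologue numbered 46, and 32 are specific to mitochondria.

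The mitochondrial ribosome translates only the mRNAs of the mitochondrial genome, which encode core subunits of the respiratory chain and of ATP synthase. Its rRNAs come from the mitochondrial genome, whereas all of its proteins are encoded in the nucleus, made in the cytosol and imported, so that the assembly of the particle needs both genomes. Several promoters of these genes are known to carry sites for factors of the ETS family, NRF1 and YY1, and some of the genes share a start region with a neighbour on the other strand.

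Libraries of polyA RNA were compared in 8 groups of 3. Cells were FBXW7-/- (KO, lacking the substrate receptor of a ubiquitin ligase) or wild type (WT). KO cells had been transfected for 48 h with a control esiRNA (esiCT) or an esiRNA against HDAC4 (esiHDAC4), or had received PROTAC #11 with esiCT. #11 is a degrader of class IIa histone deacetylases, and the labels give its dose as 1 µM in the treatment entry and 10 µM in the description, which could not be settled. Each of these cell states, and the WT cells, came without and with OXPT (oxaliplatin, a platinum drug that crosslinks DNA) at 50 µM for the last 24 h. The titles of the 6 WT libraries give siCT and their treatment entries give esiHDAC4, so the esiRNA is unsettled and these groups are called WT and WT OXPT. For the other 12 WT libraries the labels give opposite OXPT states, and these libraries entered no comparison. The KO line was bought as such, and the sources used here do not say whether it is a single clone. The labels do not state that replicates were separate cultures, so the p-values measure only the spread between these libraries.

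Reads counted to genes numbered 10725966 to 20527222 per library. Unmapped reads made up 7.74 to 13.8% of the reads in 23 libraries and 22.3% in replicate 3 of KO esiCT OXPT. The kit named in the labels marks strand, but reads fell equally on both strands (reverse to forward ratio 1.00 to 1.02), so counts regardless of strand were used, and reads from overlapping genes cannot be separated. Of the epithelial markers EPCAM, CDH1, CDX2, KRT8, KRT18 and KRT19 were present in every library, with EPCAM at 215 to 360 CPM (counts scaled to the TMM-adjusted library total unless stated otherwise), while VIL1 was at most 0.481 CPM and CEACAM5 at most 0.134 CPM. Markers of immune and endothelial cells stayed at or below 2.15 CPM, and of the fibroblast markers COL1A1 reached 77.6 CPM with COL1A2, COL3A1, DCN and LUM at most 1.44 CPM. FBXW7 mRNA was at 15.4 to 18.1 CPM in untreated KO esiCT libraries and 16.9 to 23.5 CPM in untreated WT libraries, so the mRNA level does not check the genotype. HDAC4 was at 8.80 to 14.9 CPM with esiHDAC4 and 14 to 24.9 CPM with esiCT in untreated KO cells. With OXPT these KO groups were at 3.33 to 4.19 and 5.71 to 7.50 CPM. The WT libraries were at 18.8 to 25.6 CPM untreated and 8.44 to 10.0 CPM with OXPT. No WT group with a settled esiRNA was at hand to set beside them, so the label was not tested.

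Together the members summed to 4114 to 6407 CPM of all gene counts without TMM scaling. Per kilobase of transcript, MRPL41, MRPL51 and MRPL18 stood highest, at medians over the 24 libraries of 207, 200 and 164 CPM per kb. MRPL41 and MRPL51 encode large-subunit proteins specific to mitochondria, and MRPL18 encodes the homologue of bacterial L18, which sits in the central protuberance. The ranges over libraries of MRPL41 (122.9 to 556 CPM per kb) and MRPL51 (128 to 341 CPM per kb) overlapped widely. The lowest tested members per kilobase were MRPL38 at 2.68, MRPS25 at 3.10 and MRPS5 at 3.23 CPM per kb, again with overlapping ranges. These low levels include losses at counting, because reads in stretches shared with another gene are discarded. For MRPS25 the count without regard to strand was 37.7% of the sum of both strand-specific counts, and for MRPS18C, which shares exons with ABRAXAS1, it was 22%. MRPL53, at 0 counts, shares 99.4% of its exonic bases with other genes, CCDC142 among them. Its level therefore could not be measured in these files. MRPS24, at 118 counts, shares 23.2% of its exonic bases with the read-through gene URGCP-MRPS24.

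The response to OXPT was read in 4 cell states, each against its own untreated libraries, so that no library served in more than 1 of these comparisons. With all 24 libraries in the fit, the middle of the distribution of members lay above 0 in all of them. The members that passed the test in any of them were all higher with OXPT. The median log2 fold change of the 76 members was 0.21 in KO esiCT, 0.25 in KO esiHDAC4, 0.27 in KO #11 and 0.20 in WT cells, where the genes tested as a whole had medians of 0.01, 0.02, -0.0024 and -0.06. Levels are relative to each library, so a change in the mix of cell states and a change in RNA per cell cannot be told apart. Members above 0 numbered 54, 56, 62 and 55 of 76, where 50.8%, 51.4%, 49.7% and 45.4% of all genes were above 0. Of the 76 members, 40 were above 0 in all 4 cell states and 6 in none. The same counts were not made over all genes, so these are not set against a background. Scaled by library size alone, the member median was 0.06, 0.12, 0.18 and 0.18, and that of all genes -0.12, -0.10, -0.09 and -0.08. In KO esiCT cells that scaling also moved the genes called over all from 770 higher and 628 lower to 604 and 823. No test was run on these list summaries.

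A member was called where edgeR's quasi-likelihood test gave an adjusted p under 0.05 and the fold exceeded 1.5. In KO #11 cells 6 members were called higher with OXPT (7.89% of those tested, where 5.94% of all genes were called higher) and none lower (3.57% of all genes). In WT cells 5 members were called higher (6.58%, with 5.10% of all genes higher) and none lower (5.60% of all genes). In KO esiCT and KO esiHDAC4 cells no member was called by edgeR in either direction, where 6.23% and 6.44% of all genes were called higher and 5.08% and 5.54% lower. At an unadjusted p under 0.05, 14 members passed in KO esiCT cells (18.4%, with 26.1% of all genes) and 12 in KO esiHDAC4 cells (15.8%, with 25.4%). DESeq2 called 3 members in the former and 2 in the latter, and the share of all genes it called is not given here. The share of members called higher was thus near that of all genes in KO #11 and WT cells and 0 in the other cell states, and no member was called lower in any of the 4 in this fit.

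Among members, complete separation of the 3 OXPT libraries from the 3 untreated libraries was seen more often upward than downward. The upward share was above that of all genes in KO #11 and WT cells only. In KO #11 cells 30 members lay higher without overlap (39.5%, against 22.4% of all genes) and 2 lower (2.63%, against 20.1%). In WT cells 17 lay higher (22.4%, against 11.5%) and 1 lower (1.32%, against 9.81%). In KO esiCT cells 6 lay higher (7.89%, against 15.3%) and 4 lower (5.26%, against 14.8%). In KO esiHDAC4 cells 9 lay higher (11.8%, against 18.8%) and 3 lower (3.95%, against 16.6%). Members thus separated less often than all genes in both directions in these KO esiCT and KO esiHDAC4 cells.

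MRPL39 and MRPL49 were called in both KO #11 and WT cells. MRPL39, a large-subunit protein related to threonyl-tRNA synthetase, was at 26.5, 29.8 and 21.2 CPM in untreated KO #11 libraries and at 44.2, 51.1 and 47.4 CPM with OXPT. In WT cells it was at 23.4, 31.1 and 23.4 CPM untreated and 41.5, 45.4 and 50.6 CPM with OXPT. The libraries separated without overlap in all 4 cell states. The log2 fold change was 0.88 ± 0.17 (SE, n = 3 against 3) in KO #11 (edgeR adjusted p = 0.00265) and 0.82 ± 0.17 in WT cells (edgeR adjusted p = 0.00412). In KO esiCT cells MRPL39 reached an edgeR adjusted p of 0.0447 at a log2 fold change of 0.55, below the fold limit, and in KO esiHDAC4 cells its log2 fold change was 0.47 (edgeR adjusted p = 0.0824). Its gene (ENSG00000154719.14, chr21:25585656-25607517, minus strand, GRCh38) shares no exonic base with another gene.

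MRPL49 encodes a mitochondria-specific protein of the large subunit. It lay at 101, 102 and 61.9 CPM in untreated KO #11 libraries and at 183, 161 and 146 CPM with OXPT. In WT cells the values were 93.8, 83.8 and 103 CPM untreated and 134, 130 and 232 CPM with OXPT. OXPT libraries were above all untreated libraries in each of the 4 cell states. The log2 fold changes were 0.89 ± 0.24 in KO #11 and 0.82 ± 0.24 in WT cells (edgeR adjusted p = 0.0220 and 0.0303). The gene (ENSG00000149792.9, chr11:65122183-65127371, plus strand, GRCh38) shares 11.6% of its exonic bases with others, SYVN1 among them.

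**Figure D1:**
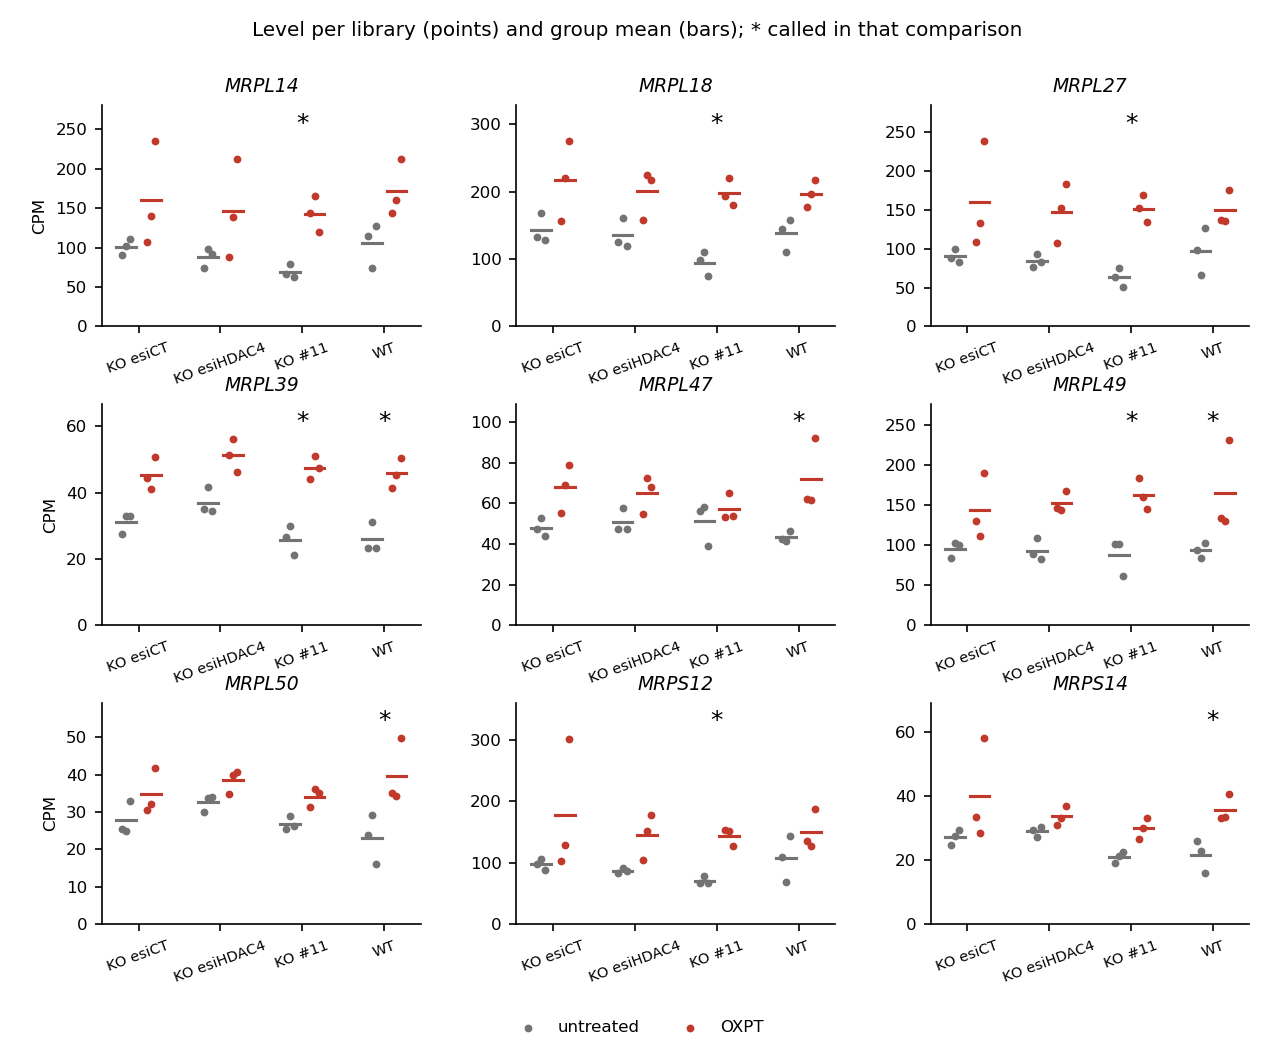
Level (CPM, linear axis from 0) of the 9 members called in at least 1 cell state, for each untreated (grey) and OXPT (red) library, with group means as bars and asterisks over the cell states in which the member was called. MRPL39 and MRPL49 carry asterisks in KO #11 and WT cells, and replicate 3 of KO esiCT OXPT is the highest point of that group for each of the 9 members.

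A further 4 members were called in KO #11 cells alone, although the interaction of #11 with OXPT, which sets KO #11 against KO esiCT cells, called 0 members, and the difference from KO esiHDAC4 and WT cells was not tested. MRPL27, the homologue of a bacterial protein that reaches toward the peptidyl transferase centre, had the largest response of any member. It was at 63.4, 75.1 and 50.3 CPM untreated and at 152, 169 and 134 CPM with OXPT. Its log2 fold change was 1.27 ± 0.27 in KO #11 (edgeR adjusted p = 0.00494), and 0.83, 0.82 and 0.63 in KO esiCT, KO esiHDAC4 and WT cells, where the edgeR adjusted p was 0.0506, 0.0513 and 0.148. The 3 OXPT libraries were above the 3 untreated libraries in all 4 cell states.

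MRPL18 rose from 98.6, 110 and 75.3 CPM to 194, 221 and 179 CPM in KO #11 cells, a log2 fold change of 1.07 ± 0.22 (edgeR adjusted p = 0.00336). MRPL14, at the interface with the small subunit, was at 67.0, 79.0 and 62.1 CPM untreated and 143, 165 and 120 CPM with OXPT, a log2 fold change of 1.04 ± 0.30 (edgeR adjusted p = 0.0295). MRPS12, whose bacterial homologue lines the decoding centre, was at 66.8, 77.6 and 66.3 CPM untreated and 153, 151 and 127 CPM with OXPT, a log2 fold change of 1.03 ± 0.31 (edgeR adjusted p = 0.0408). None of the 3 overlapped between the groups in KO #11 cells. In KO esiCT cells MRPS12 gave 102, 128 and 302 CPM with OXPT, the last from replicate 3, beside an untreated range of 87.9 to 106 CPM.

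In WT cells MRPL50, MRPS14 and MRPL47 were called in addition. MRPL50, a mitochondria-specific large-subunit protein, was at 23.8, 29.3 and 16.2 CPM untreated and at 35, 34.2 and 49.9 CPM with OXPT (log2 fold change 0.78 ± 0.21, edgeR adjusted p = 0.0200). MRPL47, a homologue of bacterial L29 near the exit tunnel, was at 42.4, 41.4 and 46.4 CPM and at 62.0, 61.9 and 92.2 CPM (0.73 ± 0.20, edgeR adjusted p = 0.0208). MRPS14, a small-subunit protein with a bacterial homologue, was at 25.8, 22.9 and 15.8 CPM and at 33.1, 33.5 and 40.7 CPM (0.73 ± 0.23, edgeR adjusted p = 0.0422). All 3 separated without overlap in WT cells, with replicate 3 the highest OXPT library. Whether their response differed between WT and KO esiCT cells was tested as an interaction, which called 0 members, and the difference from the other KO cell states was not tested.

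The start regions of MRPL27, MRPL49 and MRPL39 are shown because these members had the largest response or were called in more than 1 cell state. Each run gives the 250 bases before the RefSeq start (GRCh38.p14), 5′ to 3′ on the strand of the gene, with matches to the motifs named after them in capitals. The regions are chr17:50373185-50373434 on the minus strand for MRPL27, chr11:65121933-65122182 on the plus strand for MRPL49 and chr21:25607482-25607731 on the minus strand for MRPL39.
MRPL27: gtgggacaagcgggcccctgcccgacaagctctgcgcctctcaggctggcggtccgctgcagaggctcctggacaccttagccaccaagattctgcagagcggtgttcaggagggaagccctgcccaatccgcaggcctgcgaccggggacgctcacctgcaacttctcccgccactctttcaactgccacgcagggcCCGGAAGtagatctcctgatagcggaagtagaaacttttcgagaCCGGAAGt
MRPL49: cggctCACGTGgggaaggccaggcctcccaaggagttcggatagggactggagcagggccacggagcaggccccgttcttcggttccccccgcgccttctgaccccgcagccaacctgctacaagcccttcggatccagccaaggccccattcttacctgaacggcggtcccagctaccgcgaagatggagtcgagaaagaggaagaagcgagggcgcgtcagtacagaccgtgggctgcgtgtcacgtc
MRPL39: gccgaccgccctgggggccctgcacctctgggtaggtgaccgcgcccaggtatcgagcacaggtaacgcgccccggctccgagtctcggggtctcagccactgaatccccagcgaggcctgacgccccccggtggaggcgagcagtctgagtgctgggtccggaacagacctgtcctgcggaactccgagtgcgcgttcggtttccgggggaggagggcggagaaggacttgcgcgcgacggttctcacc

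Capitals mark 2 matches to the ETS letters CCGGAAG in the MRPL27 region and 1 match to the E-box CACGTG in the MRPL49 region. The MRPL39 region held none of the letters searched. Among the 69 members found in the RefSeq promoter table, CCGGAAG on either strand was present in 33.3%, against 11.8% of the 15843 protein-coding promoters of the same length. The NRF1 letters, GCGCA followed by any base and GCGC, were present in 11.6% of members against 7.65%, the YY1 letters AAGATGGCG in 4.35% against 0.751%, and CACGTG in 8.70% against 7.84%. The 15843 promoters were not limited to genes tested here, so these shares do not set members against expressed genes alone. The 22 tested members with an ETS match had median log2 fold changes with OXPT of 0.16, 0.25, 0.21 and 0.23 in KO esiCT, KO esiHDAC4, KO #11 and WT cells, and the 45 without had 0.28, 0.22, 0.34 and 0.20. Members with and without these letters thus had medians on the same side of 0 in each cell state.

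Of the 76 tested members, 27 (35.5%) had a protein-coding gene starting on the other strand within 1000 bp of their own start, against 18.5% of the 11263 protein-coding genes tested. In 13 pairs the starts faced away from each other without overlap and both genes were tested. MRPL27 starts 13 bp from EME1, which encodes a subunit of a structure-specific DNA endonuclease. EME1 fell with OXPT in KO esiCT and KO esiHDAC4 cells, by 0.78 and 0.84 on the log2 scale (edgeR adjusted p = 0.0243 and 0.0150), where MRPL27 was at 0.83 and 0.82. In KO #11 cells EME1 was at 0.40 (edgeR adjusted p = 0.280) and in WT cells at -0.67 (edgeR adjusted p = 0.0557). MRPL57 and its neighbour SKA3, a kinetochore protein gene 106 bp away, had values of opposite sign in all 4 cell states, from 0.24 to 0.50 for MRPL57 and from -0.94 to -0.59 for SKA3, with neither gene called. MRPL49 starts 6 bp from FAU, which encodes a ribosomal protein of the cytosol, and FAU was above 0 in all 4 cell states (log2 fold changes 0.37 to 1.14, none called). Over the 13 pairs the values had the same sign in 8, 6, 11 and 8 pairs in KO esiCT, KO esiHDAC4, KO #11 and WT cells.

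No member was called lower with OXPT in any of the 4 cell states. MRPL35, a large-subunit homologue of bacterial L35, was lower in all 3 OXPT libraries than in all 3 untreated libraries of each of the 4 cell states. In KO esiHDAC4 cells it was at 41.3, 47.1 and 34.4 CPM untreated and 32.2, 33.1 and 26.5 CPM with OXPT. Its log2 fold changes were -0.31, -0.42, -0.21 and -0.25 in KO esiCT, KO esiHDAC4, KO #11 and WT cells, and the edgeR adjusted p ranged from 0.0899 to 0.468. MRPS16, a small-subunit homologue whose loss causes a respiratory chain disease, was lowest in KO #11 cells, at 87.3, 101 and 95.6 CPM untreated and 54.7, 65.8 and 83.8 CPM with OXPT (log2 fold change -0.47 ± 0.24, edgeR adjusted p = 0.247). Both, and likewise MRPL19, MRPS27, MRPL11 and MRPL48, were below 0 in all 4 cell states. MRPS22, a mitochondria-specific small-subunit protein, had the lowest log2 fold change in KO esiCT cells, at -0.51 ± 0.20, followed by MRPL44 at -0.39 ± 0.18, neither called. MRPL38 came next at -0.32 and turned to 0.11 without the 3 libraries with over 13% unmapped reads.

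Members with functions outside the ribosome core varied. MRPL12, which also binds the mitochondrial RNA polymerase, was lowest of all members in WT cells, at 26.2, 16.1 and 30.6 CPM untreated and 15, 12.8 and 17.8 CPM with OXPT (log2 fold change -0.68 ± 0.38, edgeR adjusted p = 0.289), and these groups overlapped. In KO esiCT, KO esiHDAC4 and KO #11 cells MRPL12 was at 0.30, -0.26 and 0.34, not called. The sign in KO esiCT and KO esiHDAC4 cells depended on the processing. The MRPL12 gene shares 69.5% of its exonic bases with another gene. MRPL58, a peptidyl-tRNA hydrolase that rescues stalled ribosomes, was at 51.0, 48.9 and 148 CPM in untreated WT libraries. Its value in WT cells, -0.36 ± 0.34, thus rested on replicate 3, and was 0.39 without the 3 libraries with over 13% unmapped reads. MRPL45, which holds the ribosome at the inner membrane, and MRPS36 were called in no cell state. The 3 paralogues MRPS18A, MRPS18B and MRPS18C, of which MRPS18A is part of the large subunit, were not called in any cell state. Their highest value was MRPS18A in KO #11 cells, at 22.4, 27.0 and 21.4 CPM untreated and 37.7, 38.3 and 35 CPM with OXPT (log2 fold change 0.65 ± 0.24, edgeR adjusted p = 0.0923). No fold is given for MRPS18B, MRPS18C and MRPL45. The sign of each depended on the processing in at least 1 cell state, as did that of MRPS18A, MRPL12, MRPL58 and MRPS36.

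Large-subunit and small-subunit members had medians above 0 in each cell state. For the 50 tested large-subunit members they were 0.26, 0.25, 0.33 and 0.14 in KO esiCT, KO esiHDAC4, KO #11 and WT cells, and for the 25 small-subunit members 0.13, 0.22, 0.21 and 0.22. Members with a bacterial homologue had medians of 0.29, 0.26, 0.34 and 0.19, and mitochondria-specific members 0.13, 0.18, 0.26 and 0.23. The order of the classes was not the same in the 4 cell states.

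**Figure D2:**
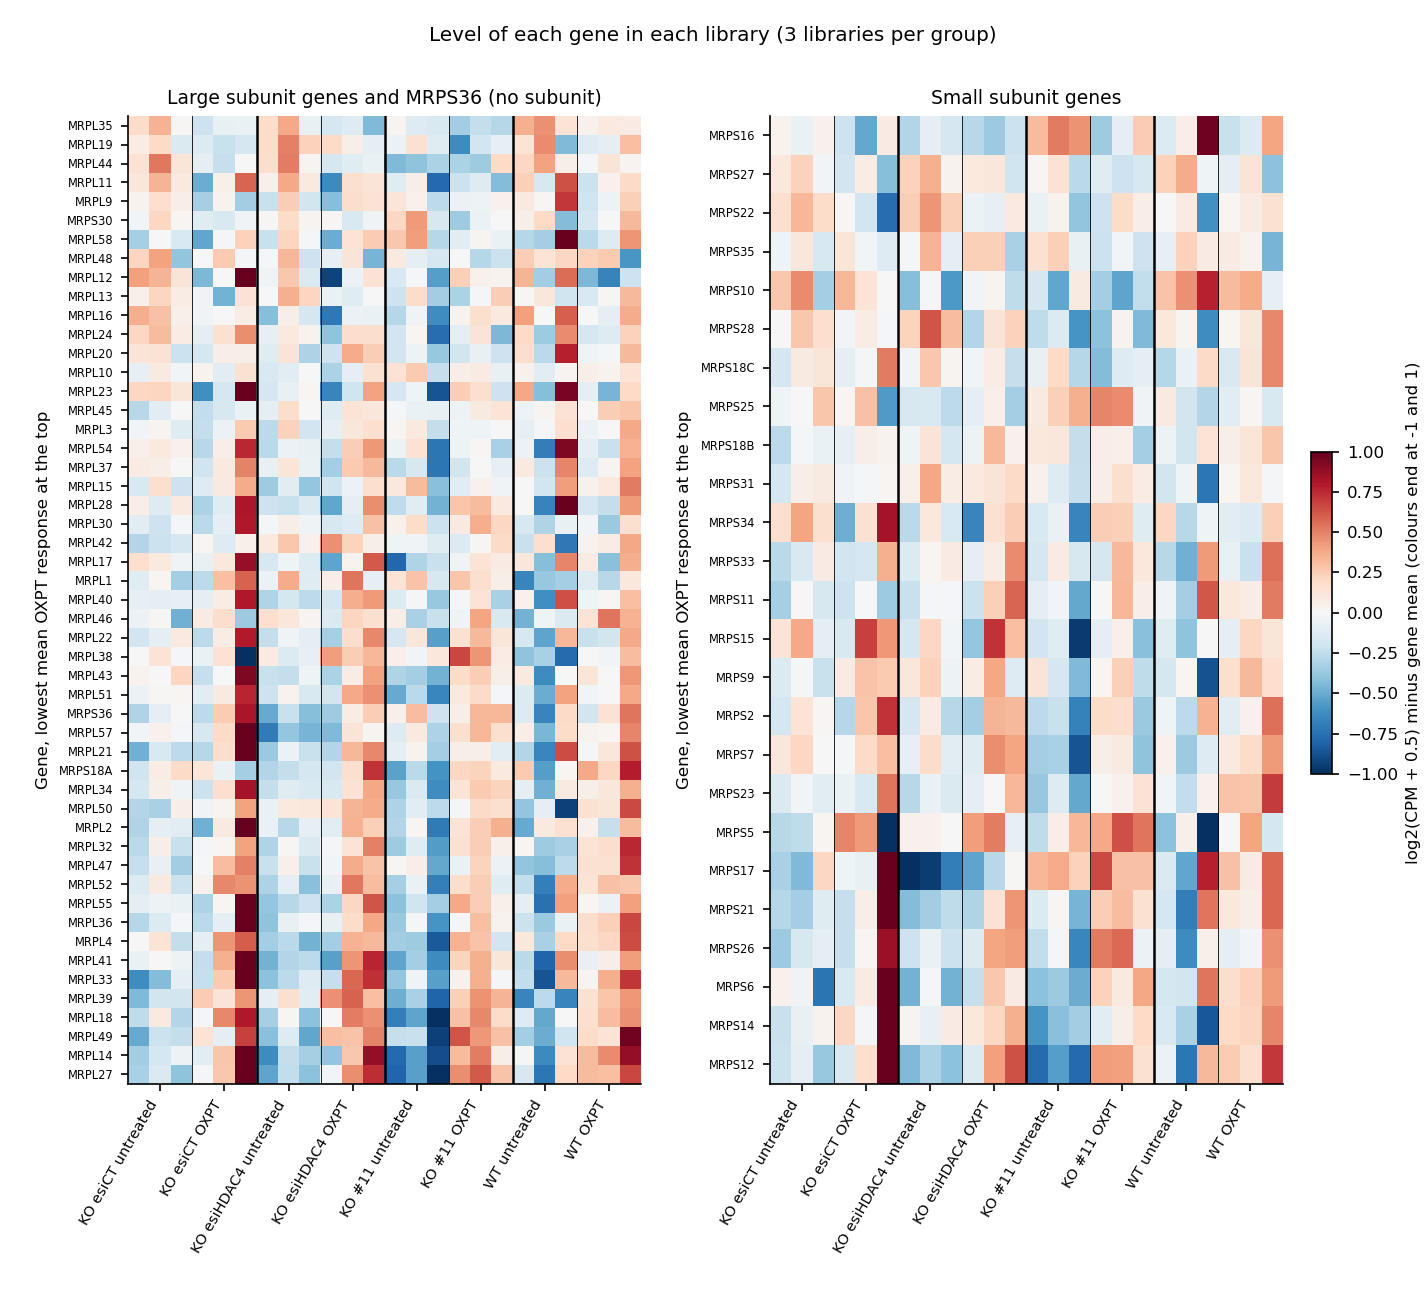
Level of each of the 76 tested members in each of the 24 libraries, as log2(CPM + 0.5) minus the mean of that gene (red above, blue below, colours ending at -1 and 1), with untreated and OXPT libraries of the 4 cell states side by side. Rows run from the lowest mean OXPT response at the top to the highest at the bottom, and replicate 3 of KO esiCT OXPT and replicate 3 of untreated KO #11 stand out as columns.

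Members moved together between replicates of a group. The first component of their deviations from the group means held 66.0% of the sum of squares over 24 libraries. It was not computed over all genes, so this is not shown to be particular to the members. In replicate 3 of KO esiCT OXPT, 63 of 76 members lay above the group mean, with a median deviation of 0.31 on the log2 scale, and summed to 8162 CPM, against 4846 and 5686 CPM in the other replicates and 5017 to 5498 CPM in the untreated group. These sums carry TMM scaling, with a factor of 0.789 for this library, and without it the sums were 6393 CPM against 5045 and 5588 CPM in the other replicates. That library had 22.3% unmapped reads, against 9.46% and 9.74% in the other replicates. Without it the median log2 fold change of members in KO esiCT cells was -0.0028 with 37 of 76 above 0, and without replicate 1 of the same group it was 0.36 with 5 members called higher and 1 lower. In WT cells the median was 0.06 without replicate 3 of WT OXPT, with 1 member called, 0.08 without replicate 2 of untreated WT, with 3 called, and 0.36 without replicate 3 of untreated WT. In WT OXPT replicate 3 the mitochondrial genome gave 5.84% of gene counts, against 14.3% and 11.4% in replicates 1 and 2, and 67 of 76 members were above the group mean. In KO #11 cells the median stayed between 0.16 and 0.37 without any single library. The part of unmapped reads and of the mitochondrial share in these values was not tested. Shares of all genes called without these libraries are not given here.

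Without the 3 libraries with over 13% unmapped reads, an alternative chosen after seeing the data, the calls rose to 1 in KO esiCT, 5 in KO esiHDAC4, 11 in KO #11 and 18 in WT cells, all higher, and the medians were 0.12, 0.24, 0.27 and 0.38. With replicate number as a block, 2, 2, 6 and 5 members were called. Same-numbered replicates deviated together in the 4 OXPT comparisons, but whether the samples were paired was not tested. The shares of all genes called in these fits are not given here. The counts are therefore no result about members against other genes.

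The genes are short, and the response to OXPT ran with gene length over all genes. Tested members had a median gene length of 12480 bp, against 33541 bp for the 11263 protein-coding genes tested, and a median of 5 against 9 exons. Genes were put into 4 length classes of equal size, and 44 members fell in the shortest class (up to 13942 bp) and 5 in the longest. In the shortest class all genes together had a median log2 fold change of 0.25, 0.27, 0.25 and 0.16 in KO esiCT, KO esiHDAC4, KO #11 and WT cells, and that of members 0.25, 0.26, 0.34 and 0.18. In the next class the 14 members stood at 0.31, 0.29, 0.41 and 0.34, against 0.08, 0.12, 0.12 and 0.06 for all genes. The 13 members of the third class stood at 0.04, 0.03, 0.10 and 0.09, against -0.07, -0.08, -0.06 and -0.12 for all genes. In the longest class the 5 members had medians of -0.15, -0.20, 0.07 and 0.36, against -0.27, -0.32, -0.35 and -0.43 for all genes. In KO esiCT and KO esiHDAC4 cells the 44 shortest members and all genes of that class thus had medians within 0.01 of each other. Across genes, which are not independent replicates, Spearman's rho of the response with gene length was -0.24, -0.36, -0.29 and 0.07 for the 76 members and -0.35, -0.42, -0.40 and -0.38 for the 11263 genes. The part of gene length in the response of members was not tested.

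Other gene groups of mitochondrial translation held called genes too. Over all genes, 6.23%, 6.44%, 5.94% and 5.1% were called higher with OXPT in KO esiCT, KO esiHDAC4, KO #11 and WT cells. Called lower were 5.08%, 5.54%, 3.57% and 5.6% of all genes. The counts of called genes in the lists below were not tested against these shares. The 13 mRNAs of the mitochondrial genome had medians of 0.39, 0.30, 0.08 and 0.27 in KO esiCT, KO esiHDAC4, KO #11 and WT cells, and only MT-ND3, a complex I subunit, was called, in KO esiCT cells (log2 fold change 0.87 ± 0.25, edgeR adjusted p = 0.0266). Of the 17 translation factors tested none was called, with medians of -0.07, 0.12, -0.05 and 0.25. Among the 19 aminoacyl-tRNA synthetases and amidotransferase subunits tested, FARS2, the phenylalanyl-tRNA synthetase, was called lower in all 4 cell states (log2 fold changes -2.61, -2.73, -1.55 and -2.11). GATC, an amidotransferase subunit that completes glutaminyl-tRNA, was called higher in all 4 (1.02, 0.68, 0.76 and 0.89), but in none with reverse-strand counts, where its WT value was -0.07. GATB, another subunit, was called lower in KO esiCT cells (-0.73 ± 0.23, edgeR adjusted p = 0.0464). TRUB2, a pseudouridine synthase of the assembly pathway, was called higher in KO #11 and WT cells (1.08 and 0.69). Also in the assembly and RNA processing lists, DHX30 and POLRMT, the mitochondrial RNA polymerase, were called higher in KO #11 cells (0.71 and 0.81), and MRM1 and TWNK, the mitochondrial helicase, in KO esiHDAC4 cells (1.10 and 0.62). The 5 ribosomal proteins without an MRPL or MRPS symbol (DAP3, PTCD3, CHCHD1, AURKAIP1 and GADD45GIP1) had medians of 0.23, 0.26, 0.54 and 0.20, with none called.

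Cytosolic ribosomal proteins (83 tested) had medians of 0.43, 0.29, 0.12 and 0.05 in KO esiCT, KO esiHDAC4, KO #11 and WT cells, and complex I subunits (34 tested) 0.52, 0.36, 0.46 and 0.18. The members thus stood below the cytosolic proteins in KO esiCT cells and above them in KO #11 and WT cells, a difference that was not tested.

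KO cells with HDAC4 silencing, KO cells with #11 and WT cells were compared next, each with KO esiCT cells as the other group, so that these comparisons share libraries. No member was called by edgeR in any of the 6 comparisons. HDAC4 silencing gave member medians of -0.07 untreated and -0.08 with OXPT, with 28 and 26 of 76 above 0 (49.6% and 50.8% of all genes). With library size scaling alone these medians were 0.00061 and 0.01. In untreated cells 14 members lay lower with silencing without overlap (18.4%, against 12.1% of all genes) and 3 higher (3.95%, against 9.61%). With OXPT 1 lay lower (1.32%, against 2.51% of all genes) and 4 higher (5.26%, against 2.10%). Over all genes 0.00809% were called lower and 0% higher untreated, and 0% in both directions with OXPT. At an unadjusted p under 0.05, 2 and 4 members passed (2.63% and 5.26%, with 3.19% and 3.08% of all genes), and DESeq2 called 0 members in both. In untreated cells the 26 members of highest GC content stood at -0.17 and the 26 of lowest at 0.10, beside -0.13 and 0.20 for all genes in the same GC classes. The part of GC content was not tested.

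#11 gave a member median of -0.17 in untreated KO cells, with 23 of 76 above 0 (49.6% of all genes), and 25 members lay lower without overlap (32.9%, against 14.8% of all genes) and 3 higher (3.95%, against 17.2%). Replicate 3 of untreated #11 was the lowest library for the members, summing to 3822 CPM against 4608 and 5077 CPM in its group with TMM scaling and 4114 against 4778 and 5244 CPM without. The lowest p belonged to MRPL44, an RNase III-like protein of the large subunit, at -0.67 ± 0.18 (edgeR adjusted p = 0.0901), a member singled out after its values were seen. Here 0.380% of all genes were called higher and 0.129% lower, and 5 members passed an unadjusted p under 0.05 (6.58%, with 13.8% of all genes). DESeq2 called 1 member lower, and the share of all genes it called is not given here. With OXPT the median was -0.13 with 23 above 0 (48.4% of all genes), and 2 members lay lower without overlap (2.63%, against 4.89% of all genes) and 3 higher (3.95%, against 9.46%). In this comparison 2 members passed an unadjusted p under 0.05 (2.63%, with 10.2%), DESeq2 called 0, and 0.105% and 0.0162% of all genes were called higher and lower. The 26 members of the highest GC class stood at -0.39 in untreated cells, beside -0.05 for all genes of that class.

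KO and WT cells did not differ in any called member. The esiRNA of the WT libraries is unsettled. FBXW7 loss and a difference in esiRNA therefore cannot be told apart in these comparisons or in the interaction with genotype. The member median was -0.0039 untreated, with 38 of 76 above 0 (45.7% of all genes), and -0.01 with OXPT, with 37 above 0 (55.7%), where 0.283% and 0.129% of all genes were called lower and 0.00809% higher in both. Untreated, 0 members lay lower in KO cells without overlap (against 3.52% of all genes) and 2 higher (2.63%, against 2.88%). With OXPT 7 lay lower (9.21%, against 4.11% of all genes) and 0 higher (against 2.28%). The interactions of OXPT with genotype, silencing and #11 had member medians of 0.03, -0.02 and 0.07 and called 0 members each. At an unadjusted p under 0.05, 0 and 3 members passed between KO and WT cells (5.74% and 5.40% of all genes), and 2, 0 and 4 in the interactions (1.63%, 0.154% and 6.98%), and DESeq2 called 0 members in these 5 comparisons. A p that misses the threshold does not show that the levels were equal.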

How the data were processed

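PolyA RNA-seq counts of 36 HCT-116 libraries were used. The deposited files hold whole-number counts per gene, which the authors made with Trimmomatic 0.39 and STAR 2.7.11a on hg38 according to the submitters' processing notes. The unstranded column was used, and reads in no gene (2.58 to 5.79%) or in overlapping genes (10.6 to 12.2%) stayed out. Of 62757 identifiers, 62686 matched GENCODE 44 (GRCh38) without version. TMM factors and the quasi-likelihood test of edgeR 4.0.16 (R 4.3.3) were fitted on all 24 grouped libraries together, over genes whose mean count reached 64 in any group. Adjustment (Benjamini-Hochberg) ran over all 12356 genes, and a call needed an adjusted p under 0.05 and a fold above 1.5. Errors are SE with n = 3 libraries per group. Named members were those called, the 3 highest and 3 lowest in each OXPT response, the 3 highest and lowest levels per kb and 8 members of known role. Members and lists were chosen with earlier results of these data known. The script was tested on simulated data. The fit had no replicate block. Same-numbered replicates deviated together (every r over 0.1) in all comparisons except the 3 that involve #11 against esiCT (lowest r -0.39), and a fit with the replicate number as a block was an alternative. Counts of different replicates differed beyond sampling noise. DESeq2 1.42.0, other scalings, filters and left-out libraries served as alternatives.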

Additional observations from a re-analysis of the deposited data

Results flagged for a closer look

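The 12 WT libraries that the labels place in no OXPT state were outside every comparison, and the members are expressed in them too. Their summed counts, without TMM scaling, were 4488 to 6440 CPM with a median of 5577, beside 4114 to 6407 and a median of 5303 in the 24 grouped libraries. No explanation was tested, and no other value of the members met a criterion for a closer look. Groups of 3 libraries are too small for the outlier criterion used.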

How the results depend on the processing

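Calls among the members depended on the processing, and so did the sign of the member median in several comparisons. In KO esiCT cells, with 0 calls, reverse-strand counts, RLE scaling and library size scaling gave 1 each, DESeq2 3 and the replicate block 2. In KO esiHDAC4 cells, with 0 calls, library size scaling and the fit of the compared groups alone gave 1 each, and DESeq2 and the replicate block 2 each. In KO #11 cells, with 6 calls, the compared groups alone gave 11. In WT cells, with 5 calls, reverse-strand counts gave 3, and no count filter and the compared groups alone gave 0. #11 in untreated KO cells, with 0 calls, gave 1 with DESeq2 and 1 with the replicate block. Without the 3 libraries with over 13% unmapped reads, chosen after seeing the data, these counts were 1, 5, 11, 18 and 3. With libraries or a replicate number left out, calls ranged from 0 to 6 in KO esiCT, 0 to 3 in KO esiHDAC4, 0 to 8 in KO #11 and 0 to 7 in WT cells, and for #11 from 0 to 3 untreated and 0 to 1 with OXPT. Member medians then ranged from -0.0028 to 0.36 for OXPT in KO esiCT, from -0.24 to 0.16 for silencing with OXPT, from -0.29 to 0.10 for #11 with OXPT and from -0.21 to 0.12 for KO against WT with OXPT. With OXPT in WT cells MRPL58 went from -0.63 to 0.37 in this way, GATB from -0.33 to 0.12, and with OXPT in KO #11 cells MRPL47 from -0.026 to 0.27, GATB from -0.34 to 0.061 and MRM1 from -0.046 to 0.43. MRPL38 in KO esiCT cells and MRPL58 in WT cells turned to 0.11 and 0.39 without the 3 libraries, and GATC in WT cells to -0.066 with reverse-strand counts. The causes were not tested. Counts of called members in these fits come without the share of all genes called, so they do not set members against other genes.

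Of the calls in KO #11 cells, MRPL27, MRPL18 and MRPL39 held without any single library. MRPL49 was lost without replicate 1 or 3 of untreated #11 or 1 or 2 of #11 OXPT, MRPL14 in the same cases and without replicate 2 of untreated #11, and MRPS12 without any of 13 of the 24 libraries, all 6 #11 libraries among them. In WT cells MRPL39 held without any single library. MRPL47 and MRPL49 were lost without WT OXPT 3 or untreated WT 1 or 2, MRPL50 without WT OXPT 3 or untreated WT 3, and MRPS14 without any of 13 libraries. The block changed no other count of calls.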
